A study of Mus musculus with 45 samples.

Results

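The regions described here are 124 ATACseq peaks around 6 genes of mouse embryonic stem cells (mESC): *Myc*, *Mycn*, *Mycl*, *Max*, *Lin28a* and *Lin28b*. A peak was a member if its summit lay within 60 kb of the 5′ end of a member gene in the GENCODE annotation of mm10, and 124 of the 184964 peaks in the list met this rule. The *Myc* window held 17 peaks, *Mycn* 19, *Mycl* 23, *Max* 30, *Lin28a* 24 and *Lin28b* 11. By annotation, 57 summits fell in introns, 54 between genes, 8 in exons and 5 in untranslated regions, and 28 lay within 500 bp of a transcript start. Several windows also hold other genes (*Pvt1* beside *Myc*, *Trit1* and *Mfsd2a* beside *Mycl*, *Fntb* beside *Max*, *Dhdds* and *Crybg2* beside *Lin28a*), so a member peak is named by its distance and is not assigned to the gene.

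ATACseq uses the Tn5 transposase to tag open DNA, and the value of a peak is the number of sequenced fragments that fall in it. Each of 3 lines carries an FKBP degron tag on a pluripotency factor, SOX2-FKBP and NANOG-FKBP in the E14 background and OCT4-FKBP in V6.5, and 500 nM dTAG-13 sends the tagged protein to the proteasome. SOX2-FKBP cells were sampled at 0.5, 1, 2, 6 and 24 h, and OCT4-FKBP and NANOG-FKBP cells at 2, 6 and 24 h. The control of each line, NT, received DMSO. All cells grew without serum in 2i/LIF medium, that is with LIF, the MEK inhibitor PD0325901 and the GSK3-β inhibitor CHIR99021. Every group had 2 libraries except the treated NANOG-FKBP groups, which had 3. Each factor was depleted in 1 line, so line, genetic background and factor cannot be told apart, and levels are compared only within a line. The loss of the protein itself cannot be checked from these counts.

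MYC, MYCN and MYCL are related transcription factors that bind E-box DNA as dimers with MAX and drive growth and proliferation. In mESC the Myc proteins are known for their part in self-renewal and in keeping cells out of a dormant state. LIN28A and LIN28B are RNA-binding proteins that block the maturation of let-7 microRNAs, and *Lin28a* is a well-known gene of pluripotent cells. SOX2 and OCT4 bind together at many enhancers, where they can open chromatin, and NANOG binds many of the same regions. An open promoter does not show that a gene is transcribed.

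The 31 libraries held 1.82 to 17.6 M (mega) fragments in peaks, with a median of 9.5 M. The range was 5.66 to 10.9 M in SOX2-FKBP, 6.38 to 17.6 M in OCT4-FKBP and 1.82 to 12.4 M in NANOG-FKBP cells, where replicate 2 of each treated group was shallow (1.82, 3.27 and 2.77 M fragments). Of 8 embryonic stem cell marker genes, 7 had a promoter peak (median 240.0 normalised counts), and the exception by the 500 bp rule was *Pou5f1*. Promoter peaks also stood at 9 of 15 marker genes of other cell types (median 107.0), so the promoters do not separate these types. At 24 h the *Nanog* and *Dppa5a* promoters were lost after SOX2 depletion. After OCT4 depletion the *Nanog* promoter was lost, and those of *Tfcp2l1*, *Klf4* and the primitive endoderm gene *Gata6* were gained. Over all promoter peaks of protein-coding genes, 1.94% were lost and 25.7% gained at 24 h in SOX2-FKBP cells. In OCT4-FKBP cells 1.65% were lost and 51.6% gained, so these gains do not set the marker genes apart. Whether cells of another type take part in the changes below was not tested. In bulk libraries, fewer cells with an open region and less opening per cell cannot be told apart.

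For 5 of the distal peaks described below, the 201 bases centred on the summit are shown from GRCm38 (mm10), plus strand. Other peaks with deep losses or differences between lines, such as those 25.5 and 27.5 kb downstream of *Myc*, are not shown. The first, 14.5 kb downstream of *Mycn*, closed after both SOX2 and OCT4 depletion. The second, 45.7 kb upstream of *Mycn*, fell after OCT4 and NANOG depletion. The third, 17 kb downstream of *Mycl*, closed in SOX2-FKBP and OCT4-FKBP cells. The fourth, in an intron of *Lin28b* 40.0 kb from its 5′ end, fell in SOX2-FKBP cells, and the fifth, 5.41 kb upstream of *Lin28b*, opened in OCT4-FKBP cells. Capitals mark motif matches on either strand: the SOX motif (CATTGT or CTTTGT, exact), the octamer (ATGCAAAT with at most 1 mismatch) and the SOX-POU composite (CATTGT, any base, then ATGCAAAT, with at most 3 mismatches over 14 letters), which can overlap the octamer. Repeats, as soft-masked in the reference, make up 70.1% of the third window and 56.2% of the fifth.
Mycn, 14.5 kb downstream, chr12:12927282-12927482: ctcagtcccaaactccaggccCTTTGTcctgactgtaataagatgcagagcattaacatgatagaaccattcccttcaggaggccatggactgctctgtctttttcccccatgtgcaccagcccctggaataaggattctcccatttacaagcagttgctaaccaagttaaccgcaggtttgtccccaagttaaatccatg
Mycn, 45.7 kb upstream, chr12:12987524-12987724: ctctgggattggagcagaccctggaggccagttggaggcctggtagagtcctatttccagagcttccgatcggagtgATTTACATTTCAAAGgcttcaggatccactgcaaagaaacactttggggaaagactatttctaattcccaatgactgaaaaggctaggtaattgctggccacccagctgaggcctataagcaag
Mycl, 17 kb downstream, chr4:123012579-123012779: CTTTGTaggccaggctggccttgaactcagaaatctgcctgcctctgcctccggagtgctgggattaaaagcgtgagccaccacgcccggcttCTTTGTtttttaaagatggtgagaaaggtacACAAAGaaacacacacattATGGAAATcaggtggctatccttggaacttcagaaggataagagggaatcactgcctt
Lin28b, 40.0 kb into the gene, chr10:45446319-45446519: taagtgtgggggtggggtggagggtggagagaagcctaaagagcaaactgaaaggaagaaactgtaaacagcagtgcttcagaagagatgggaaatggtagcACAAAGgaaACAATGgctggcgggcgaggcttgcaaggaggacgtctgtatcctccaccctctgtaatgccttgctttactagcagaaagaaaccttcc
Lin28b, 5.41 kb upstream, chr10:45491708-45491908: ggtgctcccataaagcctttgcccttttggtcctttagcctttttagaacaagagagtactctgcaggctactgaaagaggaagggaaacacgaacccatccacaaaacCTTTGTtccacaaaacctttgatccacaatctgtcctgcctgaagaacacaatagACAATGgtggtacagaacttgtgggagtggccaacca

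Counted over the 6 windows, more peaks were lost than gained after depletion of SOX2 or OCT4, and the number lost grew with time. Over all times this did not hold at *Lin28a* in SOX2-FKBP or *Lin28b* in OCT4-FKBP cells, where counts were small (given by gene below). A peak was called lost or gained if edgeR's quasi-likelihood test against NT gave an adjusted p under 0.05 over all peaks tested. In SOX2-FKBP cells 110 members could be tested, and the lost peaks numbered 6, 7, 9, 14 and 27 after 0.5, 1, 2, 6 and 24 h. The shares of all tested peaks called lost at those times were 3.14%, 5.46%, 7.28%, 9.28% and 14.1%, so the members' share (5.45%, 6.36%, 8.18%, 12.7% and 24.5%) stood furthest above the background at 24 h in percentage points. Members gained at those times numbered 0, 1, 2, 3 and 5, and the background shares gained were 0.158%, 0.889%, 1.46%, 2.66% and 9.17%. For the count of 0 gained at 0.5 h, 3 members passed an unadjusted p of 0.05 and 0 were called by DESeq2.

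In OCT4-FKBP cells 118 members could be tested, and the lost peaks numbered 6, 12 and 29 after 2, 6 and 24 h, beside 5.1%, 7.97% and 12.7% of all peaks. Members gained numbered 3, 8 and 5, beside 1.92%, 4.12% and 10.8%. Blocking by replicate number raised these OCT4-FKBP counts to 10 losses and 14 gains at 2 h, where gains then outnumbered losses. At 6 h the blocked counts were 18 losses and 16 gains. The block raised calls over all peaks as well, from 8480 lost and 3194 gained to 12326 and 8607 at 2 h. At 6 h they rose from 13260 lost and 6859 gained to 18082 and 14649. Over all peaks, losses still outnumbered gains at both times. The median log2 change of the tested members at 24 h was −0.3 in OCT4-FKBP and −0.12 in SOX2-FKBP cells, where the medians over all peaks were −0.01 and 0.04. In NANOG-FKBP cells 1, 4 and 3 members were lost after 2, 6 and 24 h, beside 0.938%, 1.08% and 2.25% of all peaks. No member was gained there by edgeR or by DESeq2 (0 in each test), with 9, 5 and 10 members past an unadjusted p of 0.05, and the background shares gained were 0.0162%, 0.0367% and 0.288%. All times of a line were compared with the same NT libraries. When libraries were scaled by their totals instead of by TMM, the median over all peaks after 24 h without OCT4 moved from −0.01 to −0.14, and the split over all peaks from 21078 lost and 18027 gained to 23236 and 12187. With DESeq2 size factors the median was 0.06 and the split turned to 19374 lost and 21014 gained.

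**Figure D1:**
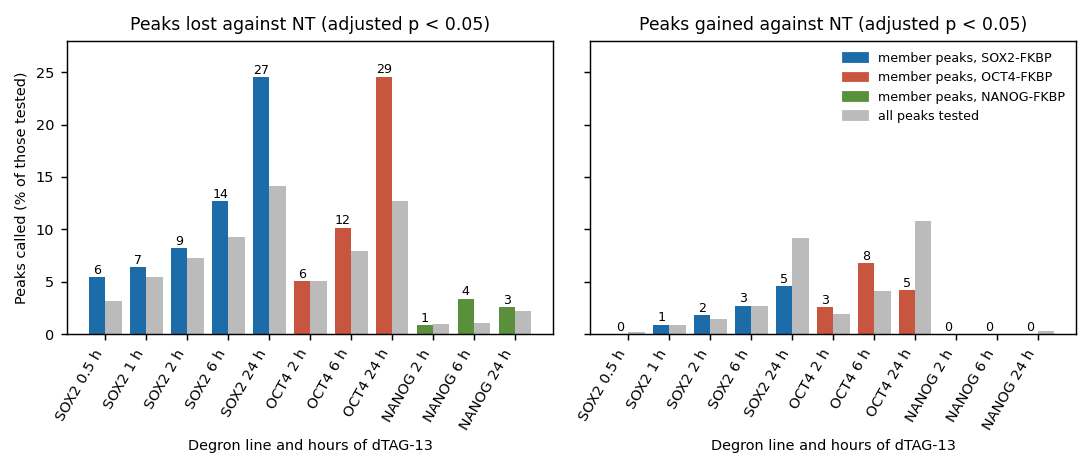
Share of tested peaks called lost (left) and gained (right) against NT by edgeR, in percent, for the members (coloured by line, with the number of peaks above each bar) and for all peaks (grey), by line and hours of dTAG-13. Lost members reach 27 in SOX2-FKBP and 29 in OCT4-FKBP cells at 24 h, both above the grey bars, while gained members at 24 h lie below them.

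Over all times, 28 members were lost at some time in SOX2-FKBP cells, 29 in OCT4-FKBP and 5 in NANOG-FKBP cells, beside 15.2%, 14.2% and 2.46% of all tested peaks. Of these, 14 were shared by the SOX2-FKBP and OCT4-FKBP lists, which is 50% of the first list and 48.3% of the second. Over all peaks the shared part was 56.3% and 58.1% of the lists, so the members' overlap was no higher than that of peaks in general. In SOX2-FKBP cells the first call came at 0.5, 1, 2, 6 and 24 h for 6, 1, 2, 6 and 13 of the 28. In OCT4-FKBP cells it came at 2, 6 and 24 h for 6, 6 and 17 of the 29. In all, 62 members were called against NT at some time in at least 1 line, 56 were tested and never called against NT, and 6 were too low to be tested in any line. The share of all peaks called in this way was not computed. A peak with enough counts only in the SOX2-FKBP NT libraries was not tested there, so such losses can be missing from the 28 and the 14.

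By gene, at 24 h 8 of 17 *Myc* peaks were lost in each of SOX2-FKBP and OCT4-FKBP cells, and 7 of 17 tested *Mycn* peaks in SOX2-FKBP and 6 of 18 in OCT4-FKBP cells. *Mycl* lost 5 of 21 and 5 of 22, *Max* 4 of 27 and 6 of 28, *Lin28a* 2 of 23 and 3 of 24, and *Lin28b* 1 of 5 and 1 of 9, where 14.1% and 12.7% of all peaks were lost. Gained peaks at some time numbered 1 in each line for *Myc*, *Mycn* and *Max*, 2 and 3 for *Mycl*, 4 and 2 for *Lin28a* and 0 and 4 for *Lin28b*. More peaks were gained than lost over all times at *Lin28a* in SOX2-FKBP cells (4 against 2) and at *Lin28b* in OCT4-FKBP cells (4 against 1). These counts are small, and the share of all peaks gained at some time was not computed. At 24 h alone, 9.17% of all peaks were gained in SOX2-FKBP and 10.8% in OCT4-FKBP cells. Whether the genes differ was not tested. Peaks lost in both lines at some time numbered 6 at *Myc* (of 8 lost in SOX2-FKBP and 8 in OCT4-FKBP cells) and 4 at *Mycn* (of 8 and 6). There were 2 at *Mycl* (of 5 and 5) and 2 at *Max* (of 4 and 6). There was none at *Lin28a* (of 2 and 3) or *Lin28b* (of 1 and 1), lists too short to read an overlap from. Over all peaks 56.3% and 58.1% of the lists were shared. By distance, SOX2-FKBP cells at 24 h had lost 13 of 35 tested peaks between 2 and 20 kb from a 5′ end, 3 of 8 within 2 kb and 11 of 67 beyond 20 kb, and gained 1, 0 and 4. Over all protein-coding genes the shares lost at these distances were 10.4%, 3.81% and 10.2%, counting each pair of a peak and a gene. In OCT4-FKBP cells the members lost were 11 of 38, 0 of 8 and 18 of 72, with 1, 1 and 3 gained, and the shares over all genes were 11.5%, 3.69% and 10.8%.

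**Figure D2:**
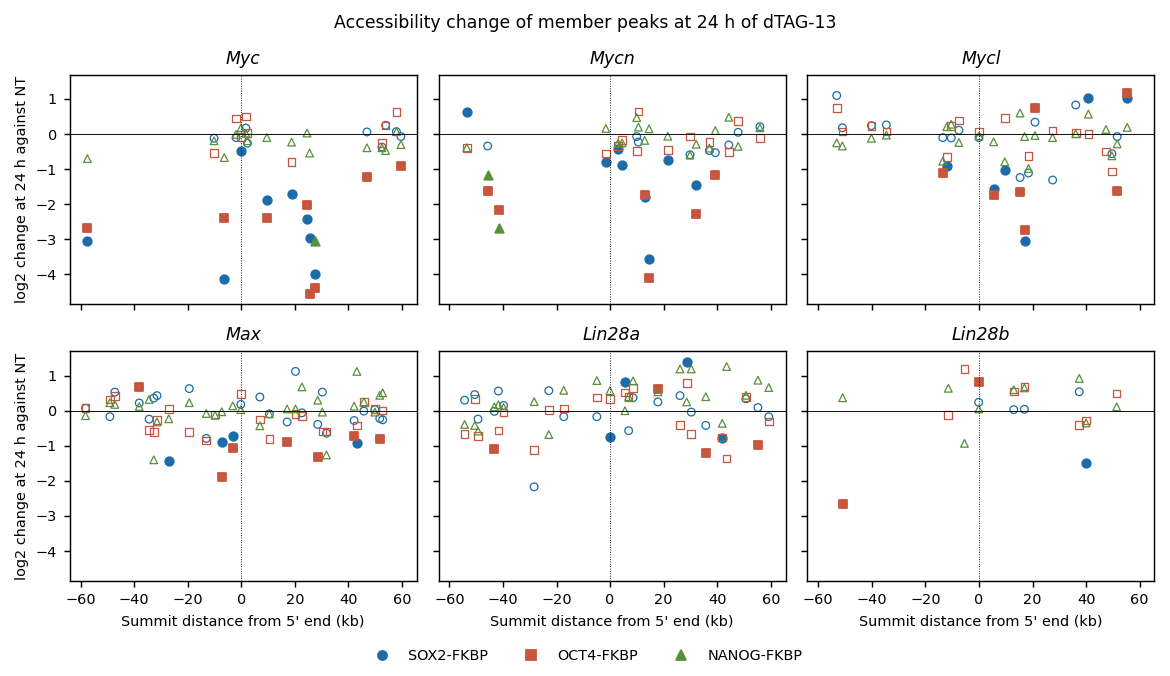
Log2 change of each tested member at 24 h against NT (vertical axis) by the distance of its summit from the gene's 5′ end in kb (horizontal axis), with filled symbols for adjusted p under 0.05. In OCT4-FKBP cells the 3 lowest points are 25.5 and 27.5 kb downstream of *Myc* (−4.55 and −4.38) and 14.5 kb downstream of *Mycn* (−4.09), and few symbols are filled for *Max*, *Lin28a* and *Lin28b*.

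At the promoters of the 6 genes the log2 changes at 24 h lay between −0.8 and 0.83, while some distal peaks fell by more than 4 on the log2 scale. Values are normalised counts, that is fragments in the peak per 10 M effective fragments of the library, so they grow with peak width and are not compared between peaks. The *Mycl* promoter (12 bp from the 5′ end) held 362 and 343 in NT and 329 and 328 at 24 h in SOX2-FKBP cells, and its log2 changes stayed between −0.14 and 0 in this line. In OCT4-FKBP cells its change at 24 h was 0.07 (SE 0.20, edgeR adjusted p = 0.86). The *Max* promoter likewise passed no test, with 0.18 (SE 0.15) in SOX2-FKBP and 0.47 (SE 0.21, edgeR adjusted p = 0.097) in OCT4-FKBP cells at 24 h.

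3 promoters were lower after SOX2 depletion. The peak nearest the *Mycn* start, 1.6 kb upstream, had 587 and 636 in NT, 429 and 424 at 6 h and 322 and 380 at 24 h. It fell by 0.52 at 6 h (SE 0.14, edgeR adjusted p = 0.01) and by 0.80 at 24 h on the log2 scale (SE 0.14, adjusted p = 5.1e-05), and no treated library reached the NT range. OCT4-FKBP libraries read 532 and 524 in NT and 412 and 306 at 24 h, a change of −0.55 that missed the threshold (SE 0.21, edgeR adjusted p = 0.052). The *Lin28a* promoter had 220 and 243 in NT and 131 and 141 at 24 h in SOX2-FKBP cells, and fell by 0.76 (SE 0.17, edgeR adjusted p = 0.00062). In OCT4-FKBP cells the *Lin28a* promoter read 389.2 and 362.5 in NT and 571 and 369 at 24 h, with a change of 0.33 (SE 0.25, edgeR adjusted p = 0.38), and the difference between the lines at 24 h, −1.05, did not pass (SE 0.36, edgeR adjusted p = 0.12). The *Myc* promoter had 207 and 183 in NT and 146 and 134 at 24 h in SOX2-FKBP cells and fell by 0.49 (SE 0.17, edgeR adjusted p = 0.033), a call that was not kept when any of the 4 libraries was left out, nor by DESeq2 or the 27-library fit.

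The *Lin28b* promoter was the only promoter of the 6 genes called gained. In OCT4-FKBP cells it had 222 and 228 in NT and 516 and 282 at 24 h, and rose by 0.83 (SE 0.26, edgeR adjusted p = 0.016). Both 24 h libraries lay above NT, but without replicate 1 at 24 h the change was 0.34 and the call was lost. Across all promoter peaks of protein-coding genes, 25.7% were gained and 1.94% lost at 24 h in SOX2-FKBP cells (median change 0.33), and 51.6% were gained and 1.65% lost in OCT4-FKBP cells (median 0.64). The *Myc* and *Lin28a* peaks belong to this class and the *Mycn* peak, 1.6 kb from the start, does not. No promoter of the 6 genes was called in NANOG-FKBP cells at 2, 6 or 24 h, where the *Lin28a* promoter had the widest change, 0.75 at 2 h (SE 0.25, edgeR adjusted p = 0.21). Over all promoters 0.0409%, 0.0737% and 0.196% were lost there at these times, and 0.0246% gained at 24 h.

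**Figure D3:**
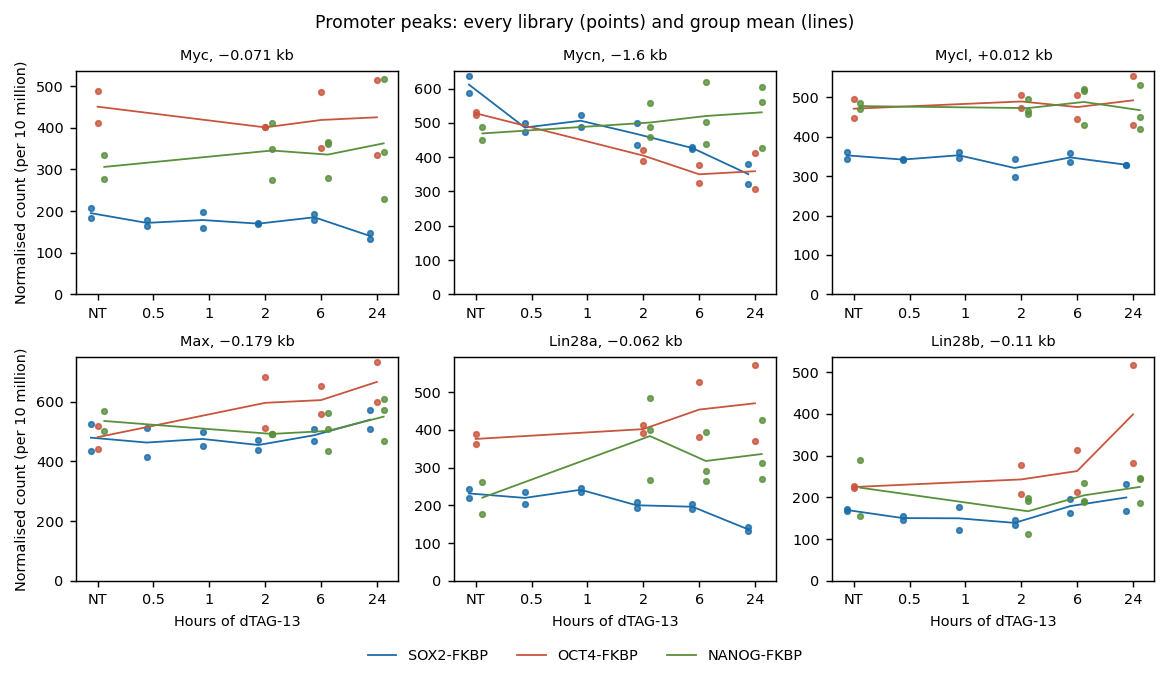
Normalised counts (per 10 M, vertical axis from 0) of the promoter peak of each gene in every library (points) with group means (lines), by hours of dTAG-13 and line. SOX2-FKBP values of *Mycn* and *Lin28a* end below NT at 24 h, while *Mycl* stays near its NT level. Titles give the distance from the 5′ end.

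An intergenic peak 14.5 kb downstream of the *Mycn* 5′ end (chr12:12926809-12928008) was called lost from 0.5 h on in SOX2-FKBP cells. In SOX2-FKBP cells it held 161 and 197 in NT, 47.9 and 71.4 at 0.5 h, 34.4 and 30.8 at 1 h, 22.6 and 43.6 at 2 h, 15.7 and 25.2 at 6 h and 8.9 and 20.5 at 24 h. OCT4-FKBP libraries held 180 and 201 in NT, 25.2 and 34.7 at 2 h, 20.6 and 13.6 at 6 h and 9.2 and 13 at 24 h. In both lines every treated library lay far below NT, and 72.7% of the 24 h fall in SOX2-FKBP cells had occurred by 0.5 h. The log2 change was −1.63 at 0.5 h (SE 0.24, edgeR adjusted p = 3.3e-05), −2.39 at 2 h (SE 0.25) and −3.57 at 24 h (SE 0.30, adjusted p = 8.3e-12) in SOX2-FKBP cells. It was −2.64 at 2 h (SE 0.30, edgeR adjusted p = 5.4e-08) and −4.09 at 24 h (SE 0.39) in OCT4-FKBP cells. The same peak in NANOG-FKBP cells held 194 and 241 in NT and 188, 327 and 241 at 24 h, groups that overlap, and its change was 0.15 (SE 0.25, edgeR adjusted p = 0.91). The difference from the other lines was not tested.

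At *Mycn*, the peak 32.1 kb downstream, in an intron of *Gm40271*, had 138.9 and 124.5 in NT and 57.7 and 39.9 at 24 h in SOX2-FKBP cells, and it was first called at 6 h (−0.87, SE 0.20, edgeR adjusted p = 0.0015). In OCT4-FKBP cells it was called only at 24 h (−2.29, SE 0.41, edgeR adjusted p = 4.7e-05) among 2, 6 and 24 h. Upstream, the narrow peak at 41.4 kb (267 bp) held 43.6 and 39.9 in NT and 6.5, 13.6 and 3.9 at 24 h in NANOG-FKBP cells and fell by 2.69 (SE 0.49, edgeR adjusted p = 0.00052). It also fell by 2.17 in OCT4-FKBP cells at 24 h (SE 0.54, edgeR adjusted p = 0.0024). In SOX2-FKBP cells it held 21.8 and 35.6 in NT, 6.1 and 7.1 at 0.5 h, 2.2 and 7.6 at 2 h and 1.1 in each library at 24 h. The 12-library fit needed over 10 counts in over 2 libraries. Only the NT libraries held that many, so the peak was not tested there and is not among the SOX2-FKBP losses counted above. In the 27-library fit its SOX2-FKBP change at 2 h was −2.37 (edgeR adjusted p = 0.0043) when the OCT4-FKBP change was 0.19, and the difference of −2.55 passed the test (SE 0.66, adjusted p = 0.032). Some fits that left out a library did not keep this difference. At 24 h 2 fragments in 19.1 M stood against 44 in 17 M in NT, a ratio of 0.0404 with an exact 95% interval of 0.00475 to 0.155 that covers counting error only.

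The peak 45.7 kb upstream of *Mycn*, in an exon of the non-coding gene *Gm35208*, fell after OCT4 and NANOG depletion. It held 149 and 169 in NT and 42.8 and 61.8 at 24 h in OCT4-FKBP cells, and 155 and 143 in NT and 66.8, 68.1 and 64.7 at 24 h in NANOG-FKBP cells. In SOX2-FKBP cells it had 193 and 160 in NT and 140 and 142 at 24 h. The OCT4-FKBP change at 24 h was −1.61 (SE 0.25, edgeR adjusted p = 5.3e-06) and the NANOG-FKBP change −1.17 (SE 0.23, adjusted p = 0.0012). In SOX2-FKBP cells the call at 6 h (−0.51, edgeR adjusted p = 0.046) was not kept when any of the 4 libraries was left out. The SOX2-FKBP change at 24 h, −0.34, did not pass (SE 0.17, edgeR adjusted p = 0.16), and SOX2-FKBP and OCT4-FKBP changes differed by 1.32 (SE 0.34, adjusted p = 0.021). Most fits that left out a library did not keep this difference. The NANOG-FKBP change was not tested against the others.

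The *Myc* window had the highest share of lost peaks of the 6 windows at 24 h, and its deepest losses were in intergenic peaks. *Pvt1* is the long non-coding gene downstream of *Myc*. The peak 25.5 kb downstream (chr15:62010600-62011240) held 136.9 and 116.5 in NT, 49.9 and 91 at 0.5 h, 67.6 and 65 at 1 h, 37.7 and 55.9 at 2 h, 34.6 and 44.1 at 6 h and 16.6 and 16.2 at 24 h in SOX2-FKBP cells. The OCT4-FKBP libraries held 127 and 174 in NT, 32.9 and 51.8 at 2 h, 18.7 and 21 at 6 h and 1.5 and 11.4 at 24 h. It closed step by step in both lines, with log2 changes at 24 h of −2.95 (SE 0.28, edgeR adjusted p = 2.7e-10) and −4.55 (SE 0.49, adjusted p = 5e-09). The early SOX2-FKBP calls were weaker, with −0.94 at both 0.5 h (SE 0.23, edgeR adjusted p = 0.013) and 1 h, and neither was kept by DESeq2. Without replicate 1 at 0.5 h the first was −0.49. The NANOG-FKBP changes were −0.54, −0.57 and −0.54 and passed no test (edgeR adjusted p = 0.81, 0.71 and 0.54).

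A neighbouring peak, 27.5 kb downstream of *Myc* (chr15:62012293-62013085), was called in all 3 lines but at different times. In NANOG-FKBP cells it dropped from 273 and 250 in NT to 28.2, 39.3 and 41.8 at 2 h, and it held 28.9, 46.7 and 31.1 at 6 h and 30.1, 31.8 and 32.4 at 24 h. The OCT4-FKBP values went from 246 and 319 in NT to 91.9 and 96.3 at 2 h, 19.3 and 38.9 at 6 h and 7.6 and 19.5 at 24 h. SOX2-FKBP libraries held 138 and 147 in NT, 104 and 100 at 2 h, 43 and 35.1 at 6 h and 11.1 and 6.5 at 24 h. The NANOG-FKBP change was about as large at 2 h as at 24 h (−2.94, SE 0.27, edgeR adjusted p = 1.4e-08; −3.06 at 24 h), the OCT4-FKBP fall went on from 2 h (−1.59, SE 0.24) to 24 h (−4.38, SE 0.34), and the SOX2-FKBP fall was not called until 6 h. The SOX2-FKBP change was −0.47 at 2 h (SE 0.18, edgeR adjusted p = 0.12), −1.87 at 6 h (SE 0.21) and −4.00 at 24 h (SE 0.28, adjusted p = 3.1e-13). SOX2-FKBP and OCT4-FKBP cells differed at 6 h by 1.46 (SE 0.38, edgeR adjusted p = 0.024) and not at 2 h (1.18, SE 0.35, adjusted p = 0.079) or at 24 h (0.42, SE 0.59). The 6 h difference was kept in 2 of 8 fits that left out a library.

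The peak 6.35 kb upstream of *Myc* (chr15:61978440-61979386) closed quickly after SOX2 depletion and slowly after OCT4 depletion. SOX2-FKBP libraries held 55.5 and 89 in NT, 14.3 and 17.8 at 0.5 h, 8 and 17.1 at 1 h, 10.8 and 11.4 at 2 h, 4.2 and 11.7 at 6 h and 3.3 and 4.3 at 24 h. The OCT4-FKBP libraries held 103 and 152 in NT, 57.1 and 101 at 2 h, 48.4 and 82.1 at 6 h and 24.4 in each library at 24 h. By 0.5 h, 82.1% of the SOX2-FKBP fall had occurred, and at 2 h 47.1% of the OCT4-FKBP fall. The log2 change was −2.15 at 0.5 h (SE 0.35, edgeR adjusted p = 0.00011) and −4.14 at 24 h (SE 0.44) in SOX2-FKBP cells, and −0.68 at 2 h (SE 0.26, adjusted p = 0.13) and −2.39 at 24 h (SE 0.33, adjusted p = 7.4e-07) in OCT4-FKBP cells. The lines differed by −1.91 at 2 h (SE 0.47, edgeR adjusted p = 0.021) and −2.06 at 6 h (SE 0.49, adjusted p = 0.0097), and at 24 h the difference of −1.73 did not pass (SE 0.65, adjusted p = 0.17). Neither the 2 h nor the 6 h difference was kept in every fit that left out a library.

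Of the remaining lost *Myc* peaks, the peak 57.4 kb upstream was lost in all 3 lines. It held 55.8 and 66.1 in NT and 9.2 and 9.8 at 24 h in OCT4-FKBP cells, where it fell by 2.68 (SE 0.42, edgeR adjusted p = 5.2e-06), and the SOX2-FKBP change was −3.06 (SE 0.58, adjusted p = 0.0001). In NANOG-FKBP cells it held 71.8 and 86.5 in NT, 31.9, 32.3 and 35.9 at 6 h and 41.5, 68.1 and 47.9 at 24 h. It was called there only at 6 h of the 3 times (−1.25, SE 0.31, edgeR adjusted p = 0.029), a call that no leave-one-out fit kept.

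**Figure D4:**
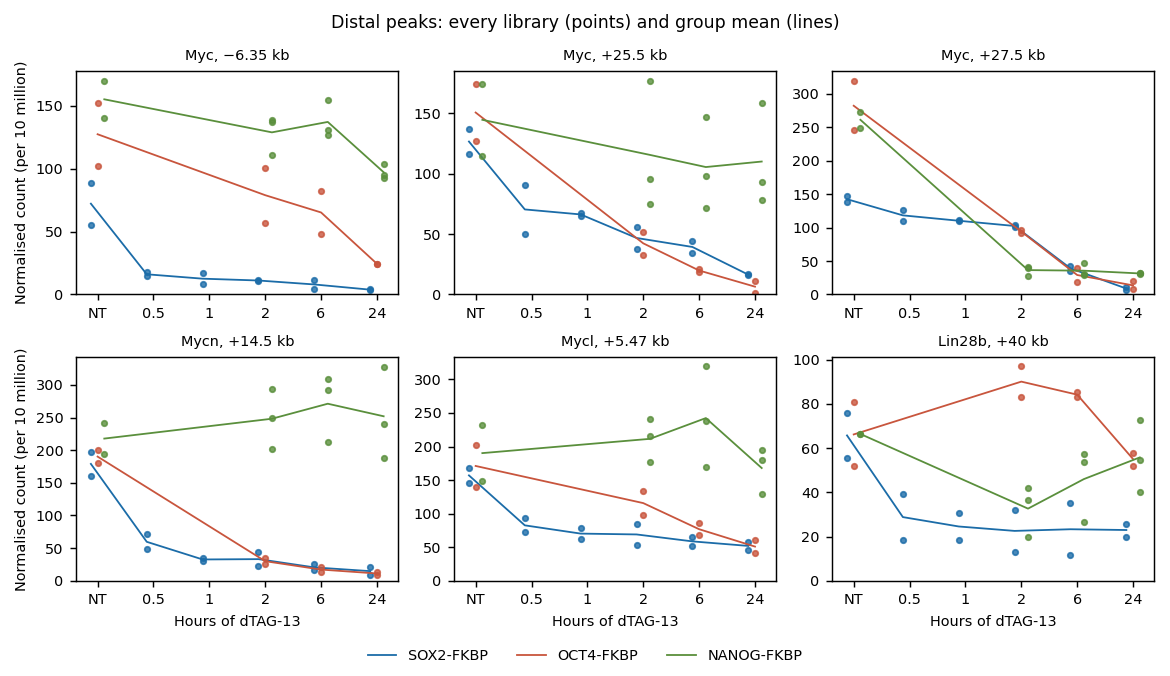
Normalised counts (per 10 M, vertical axis from 0) of 6 distal peaks in every library (points) with group means (lines), by hours of dTAG-13 and line; titles give the gene and the distance in kb, negative upstream. The *Myc* peak at 27.5 kb is low in NANOG-FKBP cells from 2 h on, and the *Lin28b* peak at 40.0 kb is low in SOX2-FKBP but not in OCT4-FKBP cells.

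Around *Mycl*, the steady promoter contrasted with a pair of downstream peaks. The peak 5.47 kb downstream, in an annotated untranslated region of *Mycl*, held 146 and 168 in NT, 72.3 and 92.8 at 0.5 h, 52.8 and 85.2 at 2 h and 45.5 and 58.3 at 24 h in SOX2-FKBP cells. The OCT4-FKBP libraries held 140 and 202 in NT, 97.7 and 134 at 2 h and 61.1 and 40.7 at 24 h. It fell by 0.95 at 0.5 h (SE 0.22, edgeR adjusted p = 0.0066) and 1.58 at 24 h (SE 0.22) in SOX2-FKBP cells, and by 1.75 at 24 h in OCT4-FKBP cells (SE 0.31, adjusted p = 3.3e-05). The smaller peak at 17 kb held 30.8 and 35.6 in NT, 5.1 and 17.8 at 0.5 h, 1 and 4.5 at 6 h and 3.3 and 4.3 at 24 h in SOX2-FKBP cells, a change of −3.05 at 24 h (SE 0.54, edgeR adjusted p = 3.9e-05). The OCT4-FKBP change was a fall by 2.73 at 24 h (SE 0.55, edgeR adjusted p = 0.00024). None of the differences between the lines passed at these 2 peaks.

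Opening was seen at the far end of the *Mycl* window, in an intron of *Trit1*, a transfer RNA modifying enzyme. The peak 55.3 kb downstream held 53.6 and 55 in NT and 132 and 89.5 at 24 h in SOX2-FKBP cells, and 27.1 and 33.1 in NT, 51 and 79.1 at 6 h and 47.3 and 89.5 at 24 h in OCT4-FKBP cells. It rose by 1.03 (SE 0.22, edgeR adjusted p = 0.00045) and 1.16 (SE 0.30, adjusted p = 0.0037) at 24 h on the log2 scale. Without OCT4-FKBP replicate 2 at 24 h the latter was 0.64 and without SOX2-FKBP replicate 1 at 24 h the former was 0.7, and neither call was kept.

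*Max* encodes the common partner of the Myc proteins, and its window had the lowest share of lost peaks at 24 h among *Myc*, *Mycn*, *Mycl* and *Max*. The peak 7.31 kb upstream held 59.9 and 51.5 in NT, 76.4 and 56.3 at 2 h and 15.3 and 14.6 at 24 h in OCT4-FKBP cells, so its change of −1.88 at 24 h (SE 0.35, edgeR adjusted p = 8.4e-05) was late. In SOX2-FKBP cells it fell by 0.88 at 24 h (SE 0.30, edgeR adjusted p = 0.032), a call not kept by DESeq2. The peak 27.1 kb upstream held 24.8 and 37.2 in NT and 11.1 and 10.8 at 24 h in SOX2-FKBP cells and fell by 1.44 (SE 0.38, edgeR adjusted p = 0.0045), with a change of 0.04 (SE 0.52) in OCT4-FKBP cells. The difference between the lines, −1.45, did not pass (SE 0.70, edgeR adjusted p = 0.33). The peak 43.1 kb downstream, in an intron of *Fntb*, held 40.7 and 48.5 in NT, 17.2 and 22.2 at 1 h and 13.3 and 32.4 at 24 h in SOX2-FKBP cells, with calls at 1, 2 and 24 h of −1.18, −0.98 and −0.93 that lay close to the threshold (edgeR adjusted p = 0.034, 0.047 and 0.032). The *Max* peak 31.8 kb downstream was called only in NANOG-FKBP cells of the 3 lines, at 6 h (−1.65, SE 0.40, edgeR adjusted p = 0.024), a call that no leave-one-out fit kept.

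At *Lin28a*, 10 of 24 peaks were called against NT at some time in at least 1 line, and the share of all peaks called so was not computed. In SOX2-FKBP cells 2 peaks were lost at some time and in OCT4-FKBP cells 3, beside 15.2% and 14.2% of all peaks. None was lost in both, where 56.3% and 58.1% of the lists over all peaks were shared. The *Lin28a* lists are too short to read an overlap from. The peak 43.2 kb upstream, in an intron of *Crybg2*, held 260 and 222 in NT, 262 and 240 at 2 h, 243.1 and 220.5 at 6 h and 107 and 117 at 24 h in OCT4-FKBP cells. It fell there only at 24 h (−1.10, SE 0.25, edgeR adjusted p = 0.00099), with −0.02 in SOX2-FKBP cells (SE 0.20), and the difference of 1.13 did not pass (SE 0.36, adjusted p = 0.08). The peak 35.7 kb downstream, in an intron of *Dhdds*, fell by 1.22 in OCT4-FKBP cells at 24 h (SE 0.46, edgeR adjusted p = 0.047), from 63.2 and 41.5 to 19.9 and 24.4, a call that 3 of 4 leave-one-out fits, the fit without the filter, DESeq2 and its size factors did not keep. The peak 50.6 kb upstream was called gained at 2 and 6 h and not at 24 h. It held 67.5 and 53.4 in NT, 113 and 103 at 2 h and 101 and 69 at 24 h in SOX2-FKBP cells, and 12.3 and 40.3 in NT, 69.7 and 78.6 at 2 h, 64.5 and 145 at 6 h and 26 and 43.9 at 24 h in OCT4-FKBP cells. It rose by 0.81 at 2 h (SE 0.22, edgeR adjusted p = 0.011) in SOX2-FKBP cells and by 1.92 at 6 h (SE 0.35, adjusted p = 9.4e-05) in OCT4-FKBP cells, and the 24 h changes of 0.46 and 0.33 did not pass. Both SOX2-FKBP libraries at 24 h still lay above NT, and the changes from 2 h to 24 h, −0.35 and −1.09, did not pass either (edgeR adjusted p = 0.29 and 0.062). DESeq2 did not keep the SOX2-FKBP calls.

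*Lin28b* had 2 peaks whose response differed between the SOX2-FKBP and OCT4-FKBP lines. The intronic peak 40.0 kb into the gene (chr10:45446077-45446828) held 55.5 and 76 in NT, 18.3 and 39.3 at 0.5 h, 12.9 and 32.2 at 2 h, 11.5 and 35.1 at 6 h and 20 and 25.9 at 24 h in SOX2-FKBP cells. The OCT4-FKBP libraries held 51.7 and 80.7 in NT, 83.2 and 97 at 2 h, 83.2 and 85.2 at 6 h and 58 and 52.1 at 24 h. Every SOX2-FKBP library after dTAG-13 lay below NT, while the OCT4-FKBP libraries were within or above their NT range. The SOX2-FKBP change was −1.28 at 0.5 h (SE 0.37, edgeR adjusted p = 0.044) and −1.48 at 24 h (SE 0.36, adjusted p = 0.0022). Without replicate 1 at 0.5 h the 0.5 h change was −0.71 and the call was lost, and DESeq2 kept no SOX2-FKBP call of this peak (adjusted p = 0.89, 0.43, 0.27, 0.24 and 0.13 by time). The OCT4-FKBP changes were 0.43, 0.33 and −0.28, and the lines differed by −1.86 at 2 h (SE 0.49, edgeR adjusted p = 0.034) and −1.71 at 6 h (SE 0.48, adjusted p = 0.039). Most fits that left out a library did not keep these differences.

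The peak 5.41 kb upstream of *Lin28b* opened after OCT4 depletion. In OCT4-FKBP cells it held 8.2 and 9 in NT, 22.3 and 25.6 at 2 h, 28.4 and 45.7 at 6 h and 19.9 and 19.5 at 24 h, all treated libraries above NT. SOX2-FKBP libraries held 9.9 and 25.9 in NT, 1 and 5.4 at 0.5 h, 1.1 and 3.8 at 2 h, 1 and 1.8 at 6 h and 2.2 in each library at 24 h, all below NT. The OCT4-FKBP change was 1.46 at 2 h (SE 0.41, edgeR adjusted p = 0.017) and 2.09 at 6 h (SE 0.38, adjusted p = 7.3e-05). In the same 27-library fit the SOX2-FKBP change was −2.58 at 2 h (edgeR adjusted p = 0.0075) and −3.33 at 6 h (adjusted p = 0.00094). The lines differed by −4.05 at 2 h (SE 0.76, edgeR adjusted p = 0.0014), −5.42 at 6 h (SE 0.79, adjusted p = 2.1e-05) and −3.97 at 24 h (SE 0.83, adjusted p = 0.0032). The peak passed the filter of this fit through the treated OCT4-FKBP libraries, where it was high. The tests of its gain and of the difference are therefore not independent of the filter. The counts are low: at 6 h 3 fragments in 20.7 M stood against 26 in 17 M in NT of SOX2-FKBP cells, a ratio of 0.0946 (exact 95% interval 0.0183 to 0.309, counting error only).

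The intronic peak 37.4 kb into *Lin28b* was also gained in OCT4-FKBP cells, at 2 and 6 h. It held 21.3 and 20.7 in NT, 56.1 and 68.1 at 2 h, 38.7 and 39.5 at 6 h and 16.8 and 14.6 at 24 h. It rose by 1.57 at 2 h (SE 0.28, edgeR adjusted p = 0.00011) and by 0.89 at 6 h (SE 0.28, adjusted p = 0.029), where no leave-one-out fit kept the call, nor did DESeq2, total-count scaling or the fit of the OCT4-FKBP libraries alone, and from 2 h to 24 h its change was −1.98 (SE 0.34, adjusted p = 7.3e-05). In SOX2-FKBP cells it changed by 0.40 at 2 h (SE 0.30, edgeR adjusted p = 0.56), and the difference of −1.11 did not pass (SE 0.43, adjusted p = 0.29).

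The 24 h and 2 h libraries were compared to separate late from early change. From 2 h to 24 h, 13 members fell and 1 rose in SOX2-FKBP cells, beside 5.99% and 5.02% of all peaks, and 23 fell and 1 rose in OCT4-FKBP cells, beside 8.25% and 6.08%. The late fall was deep at the *Myc* peak 27.5 kb downstream, −3.53 in SOX2-FKBP (SE 0.29, edgeR adjusted p = 8.3e-10) and −2.80 in OCT4-FKBP cells (SE 0.36, adjusted p = 9.5e-07). At the *Mycn* peak 14.5 kb downstream, which was already low at 2 h, it was −1.18 (SE 0.37, edgeR adjusted p = 0.035) and −1.45 (SE 0.46, adjusted p = 0.029), and without SOX2-FKBP replicate 2 at 2 h the first was −0.61 and was not called. For the difference between SOX2-FKBP and OCT4-FKBP responses, 4 members passed at 2 h, 4 at 6 h and 2 at 24 h, beside 1.57%, 2.73% and 2.77% of all peaks. All of these are described above, in the *Myc*, *Mycn* and *Lin28b* windows.

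Sequence at the summits did not set the members apart. In 201-base windows centred on the summit, 31 of 124 members (25%) held the SOX motif, beside 25.6% of 184798 peaks. The octamer was in 15 members (12.1%, beside 16%), the composite in 3 (2.42%, beside 3.3%) and the E-box CACGTG, the site of Myc-Max dimers, in 6 (4.84%, beside 4.61%). The 3 composite matches were in the *Myc* peak 6.35 kb upstream, the *Mycn* peak 45.7 kb upstream and a *Max* peak 3.18 kb upstream. In the windows printed above, the *Mycn* peak 14.5 kb downstream has 1 SOX motif, the *Mycl* peak 17 kb downstream 3 SOX motifs and 1 octamer, and each *Lin28b* peak 2 SOX motifs. Among deep losses not printed, the *Myc* peak 27.5 kb downstream has no SOX motif, octamer or composite match. The *Myc* peak 25.5 kb downstream has 1 octamer and no SOX motif. A match is a description of these letters and does not show binding.

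Other genes of the pathways were taken as lists. The MYC-MAX network list has 13 genes, among them the Mxd family, *Mnt* and *Mga*, whose proteins compete with Myc for MAX, and 293 peaks. At 24 h 26 of its 260 tested peaks were lost and 30 gained in SOX2-FKBP cells (median change 0.14), and 25 and 26 of 276 in OCT4-FKBP cells. The lost shares, 10% and 9.06%, lay below the 14.1% and 12.7% of all peaks lost, and 9.17% and 10.8% of all peaks were gained. No promoter of the list was lost at 24 h (0 of 12), and 4 of 12 were gained in each line. *Mlxip* had the widest gain, 0.78 in SOX2-FKBP (SE 0.16, edgeR adjusted p = 0.00022) and 0.87 in OCT4-FKBP cells (SE 0.22, adjusted p = 0.0029), and *Mxd4* rose by 0.59 (SE 0.15) and 0.84 (SE 0.26). These shares are read against the 25.7% and 51.6% of all promoters gained. Only 1.94% and 1.65% of all promoters were lost, so the count of 0 lost says little. In NANOG-FKBP cells 1 of 276 tested peaks was lost (0.362%) and 1 gained at 24 h, beside 2.25% and 0.288% of all peaks.

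The LIN28-let-7 list has 22 genes, among them the let-7 genes, the uridylyl transferases *Tut4* and *Tut7*, which tag precursor let-7 bound by LIN28A, and let-7 targets such as *Hmga2*, and 344 peaks counted once each. In SOX2-FKBP cells at 24 h 40 of 311 tested peaks were lost (12.9%, near the 14.1% of all peaks) and 23 gained. In OCT4-FKBP cells 39 of 315 (12.4%, near the 12.7% of all peaks) were lost and 32 gained. Over all peaks 9.17% and 10.8% were gained in the 2 lines. Of 11 promoters, 0 were lost in either line, where 1.94% and 1.65% of all promoters were lost. Gained promoters numbered 3 in SOX2-FKBP and 6 in OCT4-FKBP cells, near the 25.7% and 51.6% of all promoters gained (median changes 0.33 and 0.64). The *Tut7* promoter rose by 0.49 (SE 0.16, edgeR adjusted p = 0.02) and 0.93 (SE 0.22, adjusted p = 0.0018), and that of *Dis3l2*, the nuclease that degrades tagged precursors, by 0.82 in OCT4-FKBP cells (SE 0.24, adjusted p = 0.0086). In NANOG-FKBP cells 5 of 315 tested peaks were lost (1.59%) and 4 gained at 24 h, beside 2.25% and 0.288% of all peaks.

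Counts were also summed over each window and scaled by library totals, not by TMM. The changes over 11 treated groups were compared with those of 17553 to 17563 other loci. The 2 loci with the highest r are given for each gene, as a description over groups that share NT libraries. For *Myc* these were *Cdk6* (r = 0.977) and *Prdm16* (r = 0.96), for *Mycn* *Fam81a* (r = 0.986) and *Glp1r* (r = 0.977), and for *Mycl* *Tex2* (r = 0.909) and *Ext2* (r = 0.902). For *Max* they were *4931406B18Rik* (r = 0.967) and *Bcl2l10* (r = 0.957), for *Lin28a* *Pnpla3* (r = 0.945) and *Cyp4f14* (r = 0.932), and for *Lin28b* *Strip2* (r = 0.987) and *Car8* (r = 0.975). The summed *Myc* window changed by −0.74 at 24 h in SOX2-FKBP and −0.76 in OCT4-FKBP cells and the *Mycn* window by −0.71 and −0.93, whereas the *Lin28b* window changed by −0.06 and 0.39.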

How the data were processed

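ATACseq libraries of 3 mESC degron lines were analysed, 31 of 45 samples; 14 samples without a column in the count table were not analysed here. The authors aligned reads to mm10 with BWA mem (0.7.17-r1188), filtered with SAMtools (1.10), removed duplicates with Picard (2.12.0), ran MACS2 on the merged libraries to call peaks, and deposited raw fragment counts per peak. The peak list as deposited also holds a MACS2 score, a fold enrichment ratio and a −log10 p at each summit, made by the authors from the merged libraries; these values were not used. Calling peaks on merged libraries means that a region open in few libraries can be missed. From these counts, peaks were tested with edgeR (4.0.16, R 4.3.3; TMM, quasi-likelihood F test, Benjamini-Hochberg over all peaks tested, threshold 0.05). SOX2-FKBP values came from a fit of 12 libraries (160432 peaks, each over 10 counts in over 2 libraries). A peak over 10 counts only in the NT libraries could not pass this filter, so fast and full losses can be missing. OCT4-FKBP and NANOG-FKBP values and the differences between lines came from a fit of 27 libraries (166430 peaks, each over 10 counts in over 6 libraries). The SE is the log2 change divided by the square root of F and is approximate. DESeq2 (1.42.0) was an alternative, and the fits were tested on simulated data. Annotation, distances and motifs were computed in Python (3.11.15, pandas 2.3.3), with sequence read by samtools (1.23.1).

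Groups were taken from the sample labels. The labels do not say that replicates are separate cultures, so p-values measure the spread between these samples, which may be technical. The members, gene lists and tests were chosen with earlier results of these data known. Named peaks were the promoter peak of each gene (within 500 bp, or the nearest peak), up to 3 other peaks a gene called against NT in SOX2-FKBP or OCT4-FKBP cells (by largest change, with at least 30.0 normalised counts in the higher group and no overlap between treated and NT libraries), and up to 5 peaks called in NANOG-FKBP cells. Depth was 1.82 to 17.6 M fragments in peaks a library, and intervals cover counting error only. Alternatives were other scaling, no filter, DESeq2, the replicate block, the other fit and leaving out each library.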

Additional observations from a re-analysis of the deposited data

Results flagged for a closer look

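For 10 results the SOX2-FKBP and OCT4-FKBP responses differed in the test of the difference itself (edgeR interaction term, 27 libraries, values as SOX2-FKBP change minus OCT4-FKBP change on the log2 scale). The peak 5.41 kb upstream of *Lin28b* differed by −4.05 at 2 h, −5.42 at 6 h and −3.97 at 24 h, and the call was kept in 8 of 8, 8 of 8 and 7 of 8 fits that left out a library. The *Lin28b* peak 40.0 kb into the gene differed by −1.86 at 2 h and −1.71 at 6 h, each kept in 3 of 8. The *Myc* peak 6.35 kb upstream differed by −1.91 at 2 h (kept in 3 of 8) and −2.06 at 6 h (kept in 5 of 8), and the *Myc* peak 27.5 kb downstream by 1.46 at 6 h (kept in 2 of 8). The *Mycn* peak 41.4 kb upstream differed by −2.55 at 2 h (kept in 4 of 8) and the *Mycn* peak 45.7 kb upstream by 1.32 at 24 h (kept in 2 of 8). The *Lin28b* peak 5.41 kb upstream passed the filter of the 27-library fit through the treated OCT4-FKBP libraries, where it was high. The lines differ in genetic background as well as in the tagged factor, and these cannot be told apart.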

How the results depend on the processing

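Of 91 counts of called members under the alternatives other than leaving out a library, 64 were within 1.5 times the reported count and 27 were not. No called value of a named peak changed direction. For named peak values that were not called, a change of direction was not assessed. The replicate block, however, gave more members gained than lost in OCT4-FKBP cells at 2 h (14 and 10). Over all peaks it gave 12326 lost and 8607 gained there. With DESeq2 size factors more of all peaks were gained than lost in OCT4-FKBP cells at 24 h. With the DESeq2 Wald test, called members in SOX2-FKBP cells numbered 2, 3, 4, 10 and 17 at 0.5, 1, 2, 6 and 24 h and 4 from 2 h to 24 h, in NANOG-FKBP cells 2 at 6 h, and differences between lines 2, 2 and 1 at 2, 6 and 24 h. In the other fit, SOX2-FKBP 24 h gave 20, SOX2-FKBP 24 h against 2 h gave 5 and OCT4-FKBP 6 h gave 13; this fit could not be made for SOX2-FKBP 0.5 and 1 h or for the differences between lines. With total counts the difference at 2 h gave 1. The cause of these moved counts was not tested. Over all peaks, the DESeq2 Wald test also called fewer in each comparison just listed for it. The replicate block called more of all peaks in each comparison given for it below. The labels give replicates only a number, and 2 numbers a control group are too few to settle whether it pairs the samples. Deviations of same-numbered samples correlated by 0.075 to 0.096 with NT and 0.079 to 0.21 among treated groups in SOX2-FKBP cells, by 0.208 to 0.332 and 0.129 to 0.318 in OCT4-FKBP cells, and by −0.019 to 0.181 and 0.084 to 0.292 in NANOG-FKBP cells. With the replicate block the counts were 14, 20 and 26 (SOX2-FKBP 1, 2 and 6 h), 24 (SOX2-FKBP 24 h against 2 h), 24 and 34 (OCT4-FKBP 2 and 6 h), 41 (OCT4-FKBP 24 h against 2 h), 7, 7 and 9 (NANOG-FKBP 2, 6 and 24 h) and 7, 9 and 9 for the differences at 2, 6 and 24 h.

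Leaving out 1 library gave 0 to 6 called members at 0.5 h, 3 to 11 at 1 h, 4 to 8 at 2 h, 9 to 12 at 6 h and 18 to 24 at 24 h in SOX2-FKBP cells, against 6, 8, 11, 17 and 32 reported. The ranges were 7 to 10, 10 to 19 and 16 to 31 in OCT4-FKBP cells, 1 to 2, 1 to 2 and 3 to 4 in NANOG-FKBP cells, 5 to 7 and 8 to 24 for 24 h against 2 h in SOX2-FKBP and OCT4-FKBP cells, and 1 to 4, 1 to 5 and 0 to 2 for the differences. Counts moved by over 1.5 times without either SOX2-FKBP NT library (18 at 24 h without replicate 1), without replicate 1 of each SOX2-FKBP time (0 at 0.5 h, 21 at 24 h), without OCT4-FKBP NT replicate 2 (10 at 6 h), 6 h replicate 2 (12 at 6 h) or 24 h replicate 1 (16 at 24 h), and without any library of the NANOG-FKBP 6 h comparison (1 or 2) or NANOG-FKBP 2 h replicate 2 (2 at 2 h). For 24 h against 2 h they did so without any of the 4 SOX2-FKBP libraries, OCT4-FKBP 2 h replicate 2 (12) or OCT4-FKBP 24 h replicate 1 (8). For the differences they did so without SOX2-FKBP NT replicate 2 or SOX2-FKBP replicate 1 at each time, OCT4-FKBP NT replicate 1 or 2 h replicate 2 (at 2 h), either OCT4-FKBP 6 h library (at 6 h), and SOX2-FKBP NT replicate 1, SOX2-FKBP 24 h replicate 2 or OCT4-FKBP NT replicate 2 (at 24 h). Among the values of named peaks with a library left out, 399 kept their side of the threshold, 168 lost the call and 1 gained it. Low counts limit the narrow *Mycn* and *Lin28b* peaks.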
